A study of Mus musculus with 2 samples.

Results

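The translation initiation and elongation factors are the proteins that load a messenger RNA and the initiator tRNA onto the ribosome and then move the ribosome along. They were taken as every gene whose symbol begins with Eif or Eef and a digit and which has at least 1 protein_coding transcript in the transcript tables. This gave 68 genes of 55536 annotated genes. They were measured by total RNA sequencing in 2 mouse heart libraries labelled female, strain B6CASTF1/J and 4 days of age. The strain is a first-generation cross by its name, and the labels name no treatment. Both libraries belong to a single group and there is no contrast. They are called replicate 1 and replicate 2 after their biological replicate numbers. Both carry the same donor label, and apart from the replicate numbers nothing says that 2 animals were used, so the spread between them may be technical. Where a figure title speaks of 2 hearts, it means these 2 libraries.

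As background, initiation begins when eIF2, carrying the initiator tRNA and GTP, joins the small ribosomal subunit together with eIF1, eIF1A, eIF3 and eIF5. The cap-binding eIF4F group brings in the messenger RNA, and eIF4E-binding proteins block that step when they are not phosphorylated. Kinases of eIF2 slow initiation under stress by blocking eIF2B, the factor that reloads eIF2 with GTP. In elongation, eEF1A delivers each aminoacyl-tRNA, eEF1B recharges eEF1A with GTP and eEF2 moves the ribosome forward, and adult heart and skeletal muscle are known for using the eEF1A2 form of eEF1A.

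Counts assigned to annotated genes totalled 3.60e+07 in replicate 1 and 3.23e+07 in replicate 2, so a gene at 0 counts could still be at up to 0.0834 or 0.0928 CPM (counts scaled to library size), and this limit covers counting error only. Levels are given in TPM, a library-scaled abundance that is corrected for length and allows genes to be set beside each other. The 2 libraries carried cardiomyocyte markers at a summed 28371 and 28350 TPM, and 0 of 6 such markers differed 2-fold. The marker sums of other cells were less alike. The 6 erythroid markers summed to 17269 TPM in replicate 1 and 220 in replicate 2, and the 6 skeletal muscle markers to 299 and 129. Most of the skeletal muscle sums was Acta1, at 263 and 125 TPM, so these sums chiefly follow that gene. The next highest were Mylpf at 14.6 TPM in replicate 1 and Tnnt3 at 1.41 in replicate 2. The median log2 ratio of the 6, replicate 2 over replicate 1, was -3.27. The 4 macrophage markers summed to 22.9 and 34.7, and 0 of 4 differed 2-fold. The 4 neural markers summed to 9.74 and 2.97, mostly Mbp at 8.29 and 2.16, and only 1 of them was high enough to be tested. The part of these other cells in the values below was not tested.

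Of the 68 genes, 65 were expressed, meaning a TPM of at least 1 in both libraries. This is 95.6%, beside 54.2% of 22015 nuclear protein-coding genes. The median level was 38.7 TPM, beside 2.23 over those protein-coding genes, and 14 members (20.6%) reached 100 TPM, beside 3.30%. Together the members held 7070 TPM in replicate 1 and 7182 in replicate 2, or 0.713% ± 0.00789 (SD, n = 2) of all TPM. The 8 elongation factors alone carried 50.3% ± 0.854 of that sum. The 13 genes of cap binding, scaffold and helicase carried 19.4%, the 8 of start codon selection and subunit joining 11.6%, the 14 of eIF3 11.3% and the 6 of eIF2 and initiator tRNA delivery 2.74%. The eIF4E-binding proteins held 1.87%, eIF2B 1.41%, the modifiers and partners of elongation factors 0.857% and the eIF2 kinases 0.461%. The factors that act on the ribosome thus summed higher than the kinases, methyltransferases and binding proteins that act on them.

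**Figure D1:**
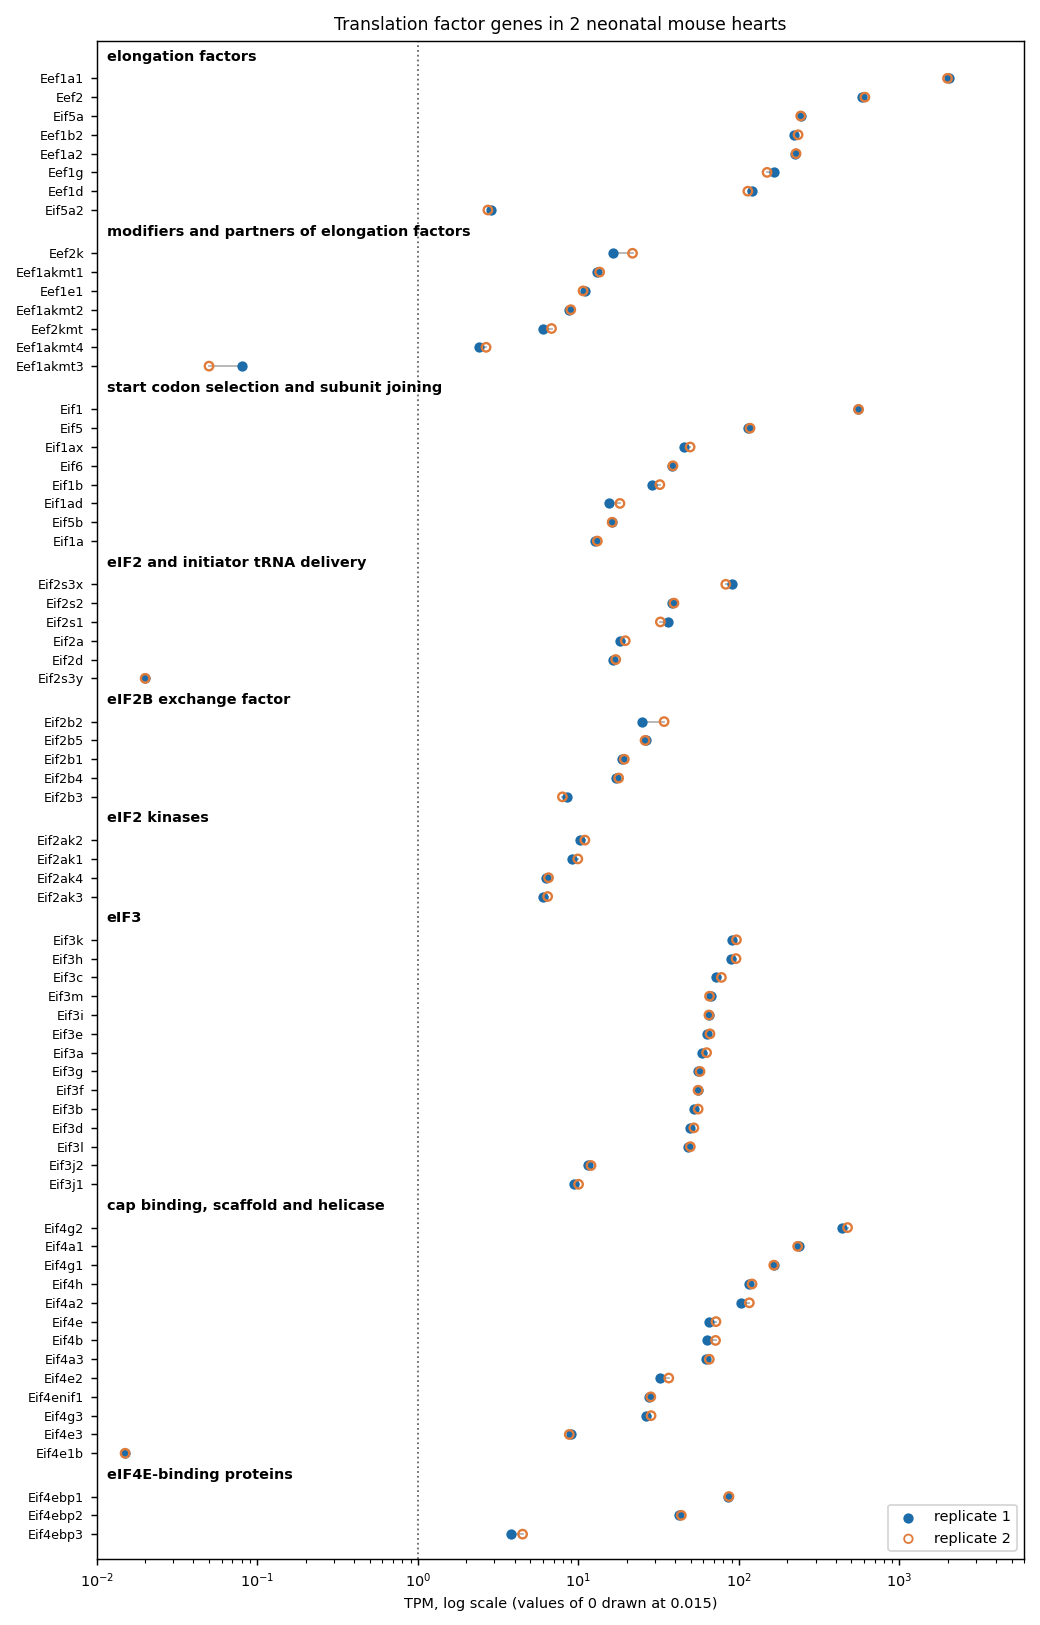
TPM of each of the 68 genes in replicate 1 (filled blue) and replicate 2 (open orange) on a log axis, grouped by role; the dotted line marks 1 TPM. Points of the same gene lie close together, Eef1a1 stands highest at 2038 and 1992 TPM, and 3 genes lie left of the line.

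The first bases of several messenger RNAs of the translation machinery are known to matter, because a C at the start followed by pyrimidines (C or T) makes a 5′ terminal oligopyrimidine tract, through which TOR signalling controls their translation. The starts below are the first 30 bases of the protein_coding transcript with the most counts of each gene (not always the one with the highest TPM) in GENCODE M21 on mm10, written 5′ to 3′. Capitals mark a C within the first 5 bases that is followed by at least 4 pyrimidines, with the whole run, or in Eef1a1 the letters TATATAA. Tracts that start after base 5 stay in lower case. Only the transcript strand was searched. The members shown first, Eif2s1 and Eif3f, carry the tract at base 1, and the next 3 are the eIF3 subunits in which it starts at base 3 or 4.
Eif2s1: CTCTTggttgactaaaacttaaagcgatca
Eif3f: CTCTTTCTCggcaagatggcttctccggcc
Eif3c: aaCCTTTTCCTCTTCCggcgtcgtgcctgt
Eif3i: agtCTTTTTCCggtcccactcacattgcct
Eif3k: acaCCTCTCTTCCggtcctctagtgctaag
Eef1a1: ttcccgagggtgggggagaacggTATATAA
Eef1a2: ttctcgctcactggttctctccctcgctcc
The Eif2s1 start lies at chr12:78861819-78861848 and the Eif3f start at chr7:108934417-108934446, both on the plus strand. The Eef1a1 start lies at chr9:78481695-78481724 on the minus strand, and the Eef1a2 start at chr2:181156985-181157014 on the minus strand. All of these are exonic.

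A tract at base 1 was annotated in 3 of 65 expressed members, 4.62%, beside 2.30% of 11910 expressed protein-coding genes and 10.9% of 92 ribosomal protein genes. Within the first 5 bases it was found in 9 of 65 members, 13.8%, beside 9.14% of expressed genes and 23.9% of ribosomal protein genes. Among those 9 were Eif2s1, Eif2s3x, Eif4h, Eef1e1 and 4 genes of eIF3 subunits, Eif3f, Eif3c, Eif3i and Eif3k. The annotated start of this Eef1a1 transcript holds TATATAA at base 24. These letters lie in the first 30 bases of 0.0924% of expressed genes and 2.17% of the 92 ribosomal protein genes. These are descriptions of the annotated ends, which were not measured here, and a start placed elsewhere would change them. A member with no tract marked, such as Eef1a1 or Eef2, is therefore not shown to lack one. The shares do not measure how many messengers carry the tract in the cell.

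The elongation factors were the highest role. Eef1a1, which encodes the main eEF1A, stood at 2038 TPM in replicate 1 and 1992 in replicate 2 and made up 28.3% ± 0.766 of the TPM of all members. Eef2, the translocase, stood at 588 and 609 TPM. The eEF1A messenger therefore exceeded the eEF2 messenger 3.37-fold ± 0.138 (SD, n = 2). Eif5a, named as an initiation factor but working in elongation and termination and modified to hypusine, stood at 244 and 242 TPM, 87.1-fold above its relative Eif5a2 at 2.85 and 2.73. Eif5a2 was the lowest elongation factor, and the other 7 were all in the top 10% of expressed protein-coding genes.

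Eef1a2, the form of eEF1A that marks adult muscle and neurons, stood at 222 and 227 TPM. In both libraries it lay well below Eef1a1, at a ratio of 8.97-fold for the pair. On the log2 scale the ratio of Eef1a1 over Eef1a2 was 3.20 and 3.13 in the 2 libraries, and it was 3.40 by the second quantification and 2.82 by CPM. Eef1a2 is also high in skeletal muscle, whose 6 markers were all called higher in replicate 1, where they summed to 299 TPM against 129. Acta1 held most of both sums, so they chiefly follow that gene. The median log2 ratio of the 6 markers, replicate 2 over replicate 1, was -3.27. Eef1a2 itself had 12387 counts in replicate 1 and 11054 in replicate 2, a log2 ratio of replicate 2 over replicate 1 of -0.05 after scaling (95% interval -0.09 to -0.02).

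The eEF1B subunits, which exchange GDP for GTP on eEF1A, stood well under Eef1a1 and within about the same range as each other. Eef1b2, the alpha subunit, had 220 and 234 TPM, Eef1g, the structural gamma subunit, 164 and 150, and Eef1d, the delta subunit, 121 and 114. Their sum was 501 ± 5.98 TPM. Between the highest and lowest of Eef1a1 and these 3 subunits the fold was 16.9 in replicate 1 and 17.5 in replicate 2.

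Genes that modify the elongation factors had a median of 8.86 TPM, beside 226 for the elongation factors themselves. Eef2k, the calcium-dependent kinase that inhibits eEF2, stood at 16.4 and 21.7 TPM, 32.0-fold ± 5.58 under its substrate Eef2. Its counts were 1440 and 1461. Eef1akmt1, a lysine methyltransferase of eEF1A, stood at 13.0 and 13.6 TPM, and Eef1e1, a scaffold protein of the aminoacyl-tRNA synthetase complex, at 11.04 and 10.7. The methyltransferase genes Eef1akmt2 (8.75 and 8.96 TPM), Eef2kmt (6.06 and 6.80) and Eef1akmt4 (2.41 and 2.66) were lower, and Eef1akmt3 had 6 and 3 counts, 0.08 and 0.05 TPM. The ratio of Eef2 to Eef2k was 25.3 by the second quantification, in the same direction.

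Among the factors of start codon selection, Eif1, which guards the choice of AUG, stood highest at 548 and 556 TPM. Eif5, which triggers GTP hydrolysis on eIF2, had 114 and 117 TPM. Eif6, which keeps the large subunit from joining early, had 38.3 and 38.8. Eif5b, the GTPase of subunit joining, had 16.3 and 16.2, and Eif1ad, an eIF1A-domain gene, had 15.5 and 18.1. Eif1 exceeded its relative Eif1b (28.6 and 32.2 TPM) by 18.2-fold, a log2 ratio of 4.18 ± 0.104 (SD, n = 2), which was 2.39 when only protein_coding transcripts were summed. The X-linked eIF1A gene Eif1ax stood at 45.5 and 49.6 TPM and its autosomal relative Eif1a, the lowest of this role, at 12.7 and 13.1. Their log2 ratio of 1.88 dropped to 0.38 in the second quantification and to 0.52 with protein_coding transcripts alone, both under the 1.5-fold used to call a pair apart.

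The eIF2 subunits were not equal. Eif2s3x, the X-linked gamma subunit that binds the initiator tRNA, stood at 90.8 and 82.8 TPM, Eif2s2, the beta subunit, at 38.3 and 39.4, and Eif2s1, the alpha subunit that the stress kinases phosphorylate, at 36.1 and 32.4. The fold from highest to lowest was 2.52 and 2.55. It was 4.24 in the second quantification and 4.26 with protein_coding transcripts alone, with Eif2s3x highest and Eif2s1 lowest each time. The Y-linked copy Eif2s3y had 1 count in each of these libraries, both labelled female. Eif2a and Eif2d, which encode alternative tRNA delivery factors and not eIF2 subunits, stood at 18.1 and 19.6 TPM and at 16.4 and 17.1.

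The 5 subunits of eIF2B were lower, with a median of 19.1 TPM. Eif2b5, the catalytic epsilon subunit, stood at 26.5 and 26.0 TPM, Eif2b1 at 18.8 and 19.3, Eif2b4 at 17.1 and 17.8 and Eif2b3 at 8.48 and 7.95. Eif2b2 had the highest mean TPM of the 5 in the first quantification, though Eif2b5 was above it in replicate 1. The highest subunit changed with the measure. It was Eif2b1 in the second quantification, at 43.0 and 40.2 TPM, and Eif2b5 with protein_coding transcripts alone, with Eif2b3 lowest each time. Of the 5, Eif2b2 differed most between the libraries in TPM, at 24.8 and 34.2, while its counts were 630 and 614. A 338-base retained-intron transcript, Eif2b2-206, stood at 7.2 and 15.8 TPM on 48.3 and 93.0 counts, whereas the protein_coding Eif2b2-201 stood at 11.2 and 11.04. In the second quantification Eif2b2-206 was listed at 0 in both libraries and the gene stood at 30.1 and 30.7 TPM.

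The eIF2 kinases were all expressed at a low level. Eif2ak2 (PKR, activated by double-stranded RNA) stood at 10.3 and 10.97 TPM, Eif2ak1 (HRI, regulated by haem) at 9.18 and 9.91, Eif2ak4 (GCN2, activated by uncharged tRNA) at 6.32 and 6.51, and Eif2ak3 (PERK, of the endoplasmic reticulum) at 6.06 and 6.43. Their order depended on the measure. Eif2ak2 led by TPM, with a log2 ratio of Eif2ak4 over Eif2ak2 of -0.73, but that ratio was 0.12 by CPM and 0.24 with protein_coding transcripts alone, so the direction flipped. Eif2ak1 and Eif2ak3 were 1.53-fold apart, just past the 1.5-fold used, and 0.52 on the log2 scale in the second quantification, just under it. The erythroid markers summed to 17269 and 220 TPM, and any link to the level of the haem-regulated kinase Eif2ak1 was not tested. The log2 ratio of Eif2ak1, replicate 2 over replicate 1, was -0.02 (95% interval -0.15 to 0.11).

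Of the 14 genes of eIF3, the scaffold on the small subunit that links it to eIF4G, 12 lay within a narrow band. Eif3k was highest at 90.8 and 96.5 TPM and Eif3l the lowest of these 12 at 48.3 and 49.8, a fold of 1.91 ± 0.0421 (SD, n = 2). The band held Eif3h (89.6 and 95.9 TPM), Eif3c (71.5 and 77.8), Eif3m (67.3 and 65.6), Eif3i (64.7 and 65.0) and Eif3e (62.9 and 66.0). It also held Eif3a (58.7 and 62.9), Eif3g (55.7 and 57.2), Eif3f (55.8 and 55.6), Eif3b (52.3 and 55.7) and Eif3d (49.9 and 52.4). The remaining 2 genes encode the loosely bound j subunit. Eif3j1 stood at 9.37 and 10.02 TPM and Eif3j2 at 11.4 and 11.98, and their sum, 21.4 ± 0.841 TPM, was still under every other subunit. With them included the fold over the complex was 9.66. Leaving the j genes out was a choice made after their values were seen. The split of reads between these near-identical genes is less certain than for most other members: the authors' posterior SD of the count was 2.13% and 2.27% for Eif3j1 and 3.76% and 4.06% for Eif3j2, and by CPM Eif3j1 was the higher by 0.83 on the log2 scale.

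**Figure D2:**
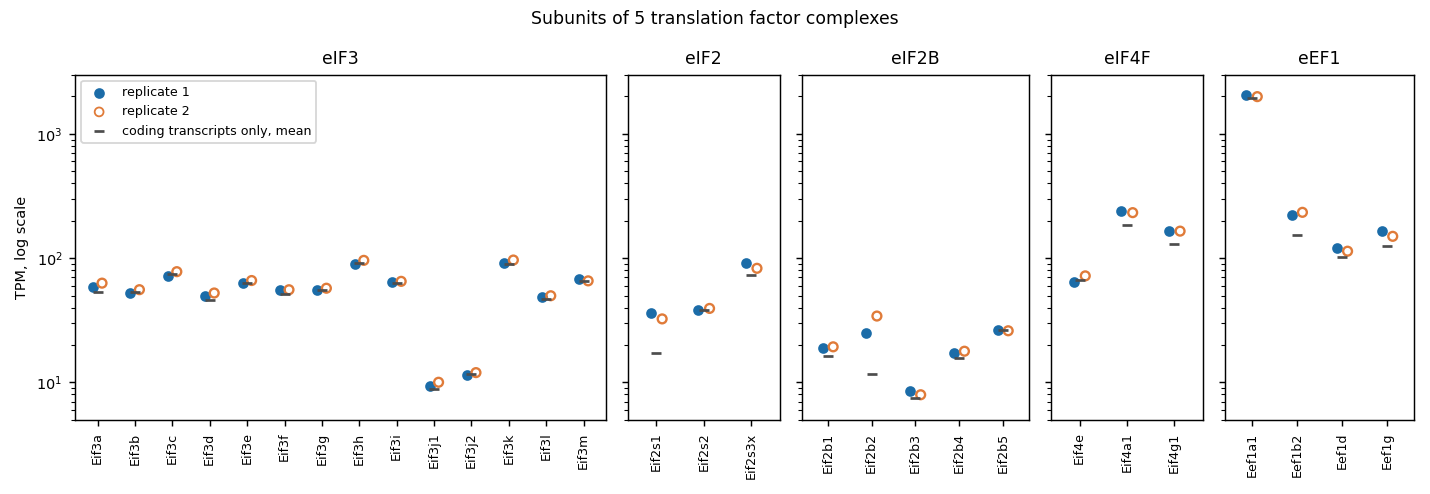
TPM (log axis) of the subunits of eIF3, eIF2, eIF2B, eIF4F and eEF1 in both libraries, with the mean from protein_coding transcripts alone as a grey dash. Apart from Eif3j1 and Eif3j2, the eIF3 subunits form a level row between 48.3 and 96.5 TPM, and the dashes of Eif2s1 and Eif2b2 lie well under their gene values.

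In the cap-binding group the scaffold genes Eif4g2 and Eif4g1 stood above the cap-binding gene Eif4e, and Eif4g3 stood under it. Eif4g2, a scaffold relative that lacks the eIF4E site and serves cap-independent initiation, was the highest at 439 and 475 TPM, 2.76-fold above Eif4g1 at 166 and 165. Eif4g3 stood at 26.2 and 28.4. Eif4e, which binds the cap, had 64.8 and 71.9 TPM, and Eif4g2 exceeded it 6.69-fold ± 0.118 (SD, n = 2). The related Eif4e2, a cap-binding repressor, had 32.1 and 36.5 TPM, Eif4e3 had 9.05 and 8.77, and Eif4e1b, known from oocytes, had 0 counts in both. In the second quantification Eif4e1b had 9.88 and 14 estimated counts, under 1 TPM. The ratio of Eif4e over Eif4e2 was 0.99 on the log2 scale by TPM and 0.53 by CPM, which is no longer 1.5-fold.

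Eif4a1 and Eif4a2, the helicases of eIF4F, stood at 238 and 232 TPM and at 102 and 116 TPM, a fold of 2.16 (1.11 on the log2 scale, and 2.79 with protein_coding transcripts alone). Eif4a3, which belongs to the exon junction complex, stood at 62.7 and 65.4. Of the cofactors that stimulate the helicase, Eif4h at 116 and 121 TPM exceeded Eif4b at 62.8 and 71.5 by 1.77-fold, although by CPM the log2 ratio of Eif4b over Eif4h was only -0.21. Eif4enif1, a transporter of eIF4E, stood at 27.5 and 28.2. Within eIF4F, Eif4a1 exceeded Eif4e 3.68-fold in replicate 1 and 3.23-fold in replicate 2. The processed pseudogene Eif4a-ps4, not a member, was listed at 29.1 and 32.1 TPM with a posterior SD of 10.9% and 11.5%, so the number of reads assigned to it is uncertain. It was the only expressed gene of the 11 with a matching name and no protein_coding transcript.

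Of the eIF4E-binding proteins, Eif4ebp1 at 85.8 and 86.6 TPM exceeded Eif4ebp2 at 42.3 and 43.8 TPM. Eif4ebp3 was low, at 3.82 and 4.49 TPM on 69.2 and 71.1 counts, with a posterior SD of 12.6% and 9.85%. The order of the first 2 turned with the measure. By CPM Eif4ebp2 was the higher, with 143 and 146 CPM against 68.4 and 67.8, a log2 ratio of 1.09 for Eif4ebp2 over Eif4ebp1, beside -1.003 by TPM and -1.60 by the second quantification. The transcripts of Eif4ebp1 differ in class and length. Eif4ebp1-202, a processed_transcript of 798 bases, carried 62.7 and 62.6 TPM on 1230 and 1075 counts, while the protein_coding Eif4ebp1-201 of 1997 bases carried 23.1 and 24 TPM on 1231 and 1118 counts. With protein_coding transcripts alone Eif4ebp2 was the higher by 0.87 on the log2 scale, and the ratio of Eif4ebp1 to Eif4e fell from 1.26 to 0.353.

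Over the 14 pairs of related genes, 13 were apart by at least 1.5-fold in the same direction in both libraries. The first-named gene was the higher in 10 and the second in 3, and the pair that was not apart was Eif3j1 and Eif3j2. For 9 of the 13, Eef1a1/Eef1a2, Eif4a1/Eif4a2, Eif4e/Eif4e2, Eif4e/Eif4e3, Eif4g1/Eif4g3, Eif4g2/Eif4g1, Eif5a/Eif5a2, Eif1/Eif1b and Eif4b/Eif4h, the second quantification and the protein_coding transcripts left direction and side of 1.5-fold as they were. Of these 9, Eif4e/Eif4e2 and Eif4b/Eif4h fell under 1.5-fold by CPM and the other 7 did not.

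**Figure D3:**
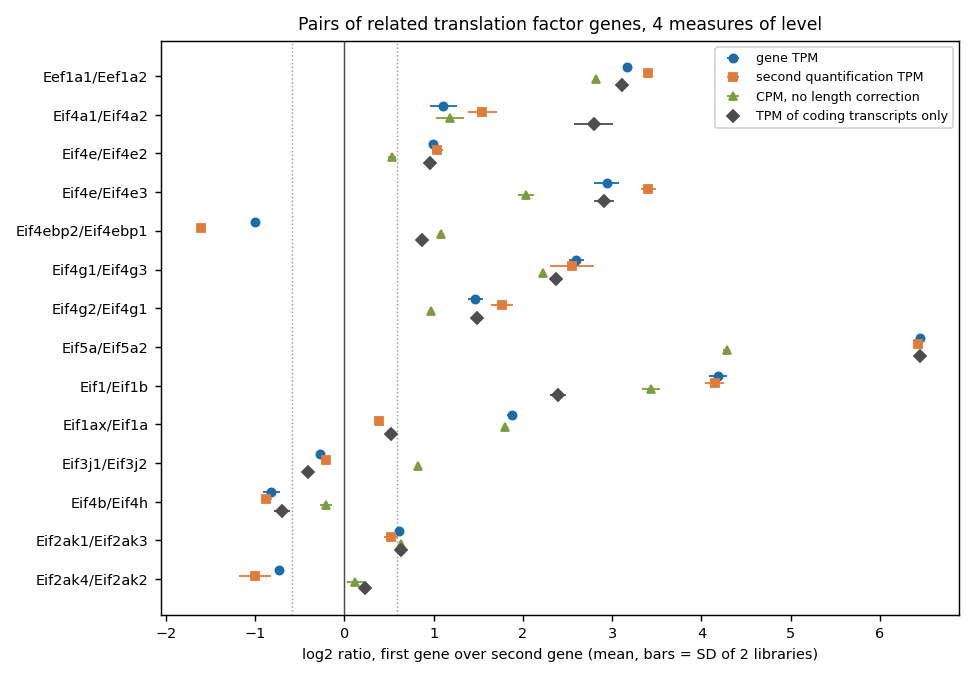
Log2 ratio of the first over the second gene of 14 pairs by 4 measures (gene TPM, second quantification, CPM, TPM of protein_coding transcripts), as the mean with bars for the SD of 2 libraries; dotted lines mark 1.5-fold. The symbols of Eif4ebp2/Eif4ebp1 and Eif2ak4/Eif2ak2 lie on both sides of 0, and those of Eif5a/Eif5a2 reach 6.45.

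Transcripts of other classes made a part of the signal of many members. Protein_coding transcripts carried 83.6% ± 0.441 of member TPM and 94.5% of member counts, beside 84.2% and 92.5% over expressed protein-coding genes. Processed transcripts carried 8.91% of member TPM, beside 5.92%, and retained introns 5.15%, beside 7.47%. At least 50% of TPM came from outside the protein_coding class in 8 of 65 members, 12.3%, beside 9.08% of expressed genes: Eif4a2, Eif4ebp1, Eif1, Eef1e1, Eif1ax, Eif2b2, Eif5b and Eif2ak2. Short transcripts weigh more in TPM than in counts. Eif1-202, a processed_transcript of 383 bases, had 319 and 315 TPM on 2541 and 2198 counts, and the protein_coding Eif1-201 of 1322 bases 151 and 151 TPM on 5174 and 4537 counts. Eif1ax-202, a retained intron of 416 bases, had 26.8 and 31.4 TPM on 238 and 245 counts, whereas in the second quantification Eif1ax-201 held 98.3% of the gene.

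The second quantification stood higher, with a median log2 difference of 0.37 over members and 0.38 over expressed protein-coding genes. Beyond that shift Eif1ax differed most, lower by -1.42 on the log2 scale (23.1 and 23.2 TPM in the second table). Eef1e1 followed at -1.14, Eif4a1 at 1.05 (635 and 627 TPM), Eif2s1 at -0.80 and Eif2b1 at 0.75. Within these genes the 2 tables divided the reads differently among transcripts. Eif2s1-203, a processed_transcript, had 18.9 and 13.8 TPM in the first table and 1.39 and 0.366 in the second. Eif4a1-212, a retained intron, had 0.00 and 0.67 TPM in the first and 164 and 179 in the second. In Eef1a1 a protein_coding transcript of 745 bases, Eef1a1-208, had 226 and 131 TPM in the first table and 1218 and 1131 in the second, while the full-length Eef1a1-201 was near the same level in both, at 1731 and 1776 against 1816 and 1835. The same transcript led in both tables and both libraries for 45 of 65 members, beside 8284 of 11935 expressed protein-coding genes, a similar share. A single transcript, which can only agree, was listed in the first table for 5 of these members and 1030 of these genes.

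**Figure D4:**
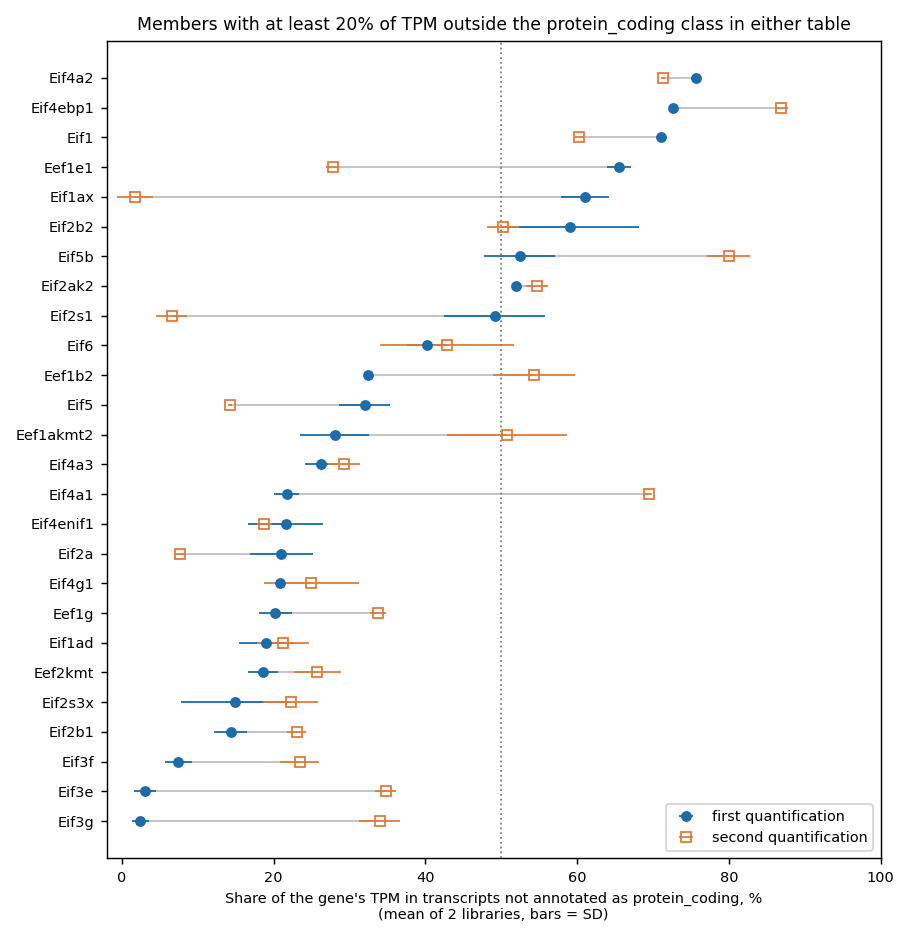
Share of each gene's TPM in transcripts not annotated as protein_coding, in percent, in the first (filled circles) and second (open squares) quantification, as the mean with bars for the SD of 2 libraries, for members at 20% or more in either. Eif4ebp1, Eif1 and Eif4a2 lie past the 50% line in both tables, whereas Eif1ax and Eif2s1 lie far apart between them.

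Several members host small nucleolar RNA genes, which guide the modification of ribosomal RNA and are cut from introns. Of the 65 expressed members 9 hold at least 1 on the same strand, 13.8%, beside 1.92% of 11935 expressed protein-coding genes: Eef1b2, Eef2, Eif2ak3, Eif3a, Eif4a1, Eif4a2, Eif4g1, Eif4g2 and Eif5. Of the 18 small RNA genes, 9 had counts in both libraries of the gene tables and 9 had 0 in both, and all 18 had 0 in the second quantification. Several have an effective length of 0 in the gene tables, so a 0 there does not measure them. The highest were Gm22988 in Eif4a1, with 508 and 499 counts at chr11:69669635-69669778, Gm26447 in Eif4a2, with 428 and 386 counts at chr16:23111301-23111429, and Gm23262 in Eif4g2, with 260 and 292 counts at chr7:111076060-111076227. The retained-intron transcripts Eif4a2-206 and Eif4a2-220 include all 129 bases of Gm26447. They stood at 4.44 and 4.82 TPM and at 0.63 and 1.24 TPM in the first table, and at 43.9 and 31.8 and at 23.6 and 41.0 in the second, where Gm26447 itself had no counts. The part of small RNA reads in the TPM of these hosts was not tested.

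Between the 2 libraries no member was called. Of 65 tested, 0 were called at 2-fold or more, beside 0.868% of 13598 genes (0.544% higher in replicate 1 and 0.324% higher in replicate 2), and 0 at 1.5-fold, beside 2.28%. With so few calls over all genes, 0 of 65 does not set the members apart. The calls compare 2 libraries and carry no p-value. Log2 ratios of replicate 2 over replicate 1, from counts scaled by TMM (the trimmed mean of M-values), ran from -0.20 in Eif2b3 (95% counting interval -0.43 to 0.03) to 0.15 in Eif4ebp3 (-0.35 to 0.65). Next came Eef1g at -0.18 (-0.23 to -0.13) and Eef1e1 at -0.17 (-0.39 to 0.06) on the lower side. On the higher side were Eef2k at 0.13 (0.02 to 0.24) and Eif1b at 0.08 (-0.06 to 0.23). The median absolute log2 ratio was 0.06 over members and 0.09 over all tested genes.

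The counting interval excluded equality for 16 of 65 members, beside 23.7% of all tested genes. It lay above 0 for 3, Eif4a2, Eif4b and Eef2k, or 4.62% beside 10.4%, and below 0 for 13, or 20% beside 13.3%. These tallies depend on the scaling: with spike-in scaling 34 lay above 0 and 0 below, and with total-count scaling 4 lay above and 4 below. Under TMM the 13 were mostly the abundant members: Eef1a1, Eef2, Eif5a, Eef1a2, Eef1g, Eef1d, Eif4g1, Eif4g2, Eif4a1, Eif2s3x, Eif1, Eif5 and Eif1ax. Among the 8 elongation factors all ratios were under 0, with a median of -0.08, but the median became 0.05 and only 2 remained under 0 when the libraries were scaled by their ERCC spike-ins (synthetic RNAs added to each), which moved the median of all tested genes from -0.003 to 0.13. With total-count scaling 6 of the 8 were under 0. Under TMM the median of the elongation factors lay below that of all tested genes (-0.08 beside -0.003). A scaling shifts the log2 ratios of all genes together. The other scalings run (DESeq2 size factors, spike-ins and total counts) therefore keep this gap and cannot test it. Because a sample is a mixture, fewer cells of a type and less RNA per cell cannot be told apart.

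**Figure D5:**
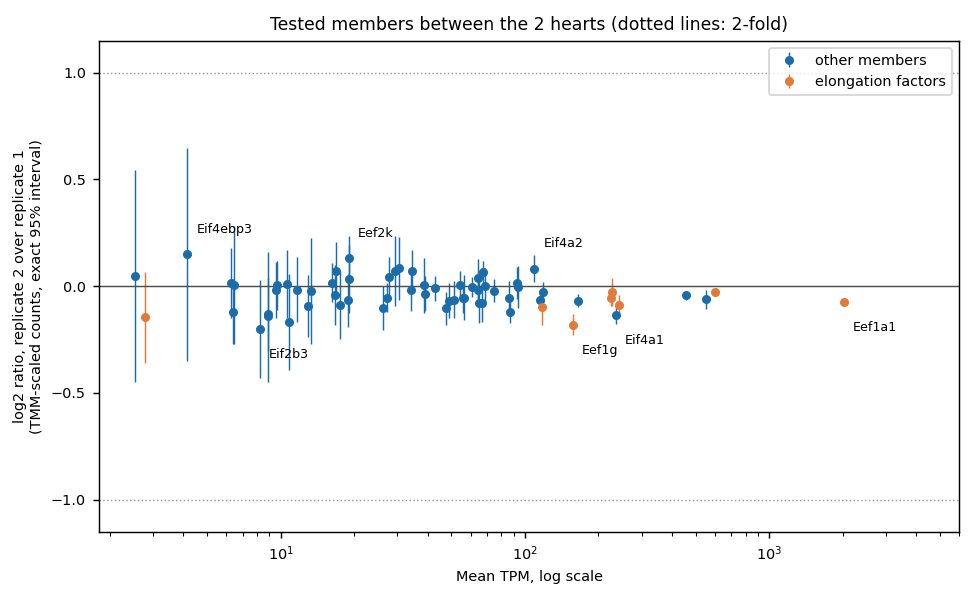
Log2 ratio of TMM-scaled counts, replicate 2 over replicate 1, against mean TPM (log axis) for the 65 tested members, with exact 95% counting intervals; elongation factors are orange and dotted lines mark 2-fold. The points lie between -0.20 and 0.15, and the intervals narrow as the level rises.

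Other genes of the pathway came from fixed lists of 48 symbols, of which 46 were found. Of those 46, 44 were expressed, beside 54.2% of nuclear protein-coding genes. Between the libraries 0 of 44 tested were called, beside 0.868% of all tested genes, so the 0 does not set them apart. Their median log2 ratio was -0.03. Of the 6 genes of termination and recycling, Etf1 (eRF1) stood at 40.4 and 41.9 TPM and Gspt1 (eRF3) at 41.4 and 40.5, with Gspt2 at 0.71 and 0.48. Pabpc1, the poly(A)-binding protein that contacts eIF4G, stood at 235 and 222 TPM. Of the 10 mitochondrial factors found, Tufm, the mitochondrial counterpart of eEF1A, was highest at 99.5 and 107 TPM and Gfm1, which moves the mitochondrial ribosome, had 83.4 and 82.0. Dhps and Dohh, which make hypusine on Eif5a, stood at 18.0 and 15.4 TPM and at 23.4 and 24.6. The 8 genes of the eIF4E kinase and TOR list were all expressed, with Mtor at 25.8 and 27.4 TPM and Mknk2 at 46.6 and 48.6. Of the 5 stress targets downstream of eIF2 phosphorylation, Atf4 stood at 52.6 and 53.2 TPM, Ddit3 at 9.14 and 9.55, Asns at 4.03 and 3.56, Trib3 at 1.29 and 1.51, and Chac1 at 0.19 and 0.29. Ppp1r15b, a targeting subunit of the eIF2 phosphatase, had 18.5 and 19.5 TPM and Ppp1r15a, the inducible one, 18.7 and 17.2.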

How the data were processed

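For each of the 2 libraries the authors deposited a gene table with expected counts (estimated counts that need not be whole), TPM and posterior means, a posterior SD given here as a score of uncertainty, and 2 transcript tables, on mm10 with annotation M21, per the notes in the deposit. Which programs made them is not given in the sources used here. Below, the gene table and its transcript table are the first quantification, and the transcript table with target identifiers, summed per gene, is the second. RNA input was 300 ng, libraries were ribosome-reduced and stranded, per the labels. Symbols, coordinates (1-based) and transcript starts came from GENCODE M21, with Python 3.11.15, numpy 2.4.6, pandas 2.3.3, scipy 1.17.1 and matplotlib 3.10.9. Not every member's start sequence is reported here. Counts were rounded, scaled by TMM (edgeR 4.0.16, R 4.3.3) over all annotated genes with 0.5 added. Between libraries, a call needed 2-fold or more, 1 TPM on average, 20 counts in sum and an exact 95% Clopper-Pearson interval that excludes equality. A pair was apart at 1.5-fold in both libraries. The between-library rule was run on simulated counts with planted changes and counting error only. That run cannot show how the rule treats other spread between libraries. The members, lists, pairs and named genes (pair and complex members, the 3 highest and the lowest of each role, members under 1 TPM, the 3 largest ratios each way and the 5 that differ most between quantifications, with others in ranges or by value) were chosen with earlier results of these data known. Alternatives covered the second quantification, posterior means, CPM, other scalings with DESeq2 1.42.0 size factors, filters and each library alone.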

Additional observations from a re-analysis of the deposited data

How the results depend on the processing

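Of 158 alternatives over all results, 122 left direction, side of the threshold and size as they were. These are not independent checks. The 1.5-fold rule does not enter the median between-library ratio, and a single library is part of the mean it is set beside. The members' share of all TPM, 0.713%, was 1.04% in the second quantification, 0.6996% by posterior means, 0.988% by CPM, 0.595% with protein_coding transcripts alone and 1.56% of nuclear protein-coding TPM, and 0.707% to 0.718% in single libraries. The share of the elongation factors was 49.4% in the second quantification, 47.5% by CPM and 56.7% with protein_coding transcripts alone, and 49.7% to 50.9% in single libraries. The fold over eIF3 became 9.23, 10.5 and 10.3 in the same order and 1.91 without Eif3j1 and Eif3j2. The fold over eIF2 became 4.24, 3.93 and 4.26, that over eIF4F 5.34, 7.07 and 2.76, and that over eEF1 16.7, 37.6 and 18.9. The fold over eIF2B became 4.65 by CPM. CPM is not corrected for length, so its ratios between genes mix length with level. Log2 ratios turned for Eif4ebp2/Eif4ebp1 (1.09 by CPM, 0.87 with protein_coding transcripts alone) and for Eif2ak4/Eif2ak2 (0.12 and 0.24). They fell under 1.5-fold for Eif4e/Eif4e2 (0.53) and Eif4b/Eif4h (-0.21) by CPM, for Eif1ax/Eif1a in the second quantification (0.38) and with protein_coding transcripts alone (0.52), and for Eif2ak1/Eif2ak3 in the second quantification (0.52) and by posterior means (0.53). Eif3j1/Eif3j2 passed 1.5-fold by CPM (0.83). The median between-library ratio became 0.10 with spike-in scaling. The share of member TPM outside the protein_coding class was 16.4%, and 19.0% in the second quantification. The median share of the leading transcript was 76.9%, and 70.1% in the second quantification. The causes were not tested beyond what length and transcript class show. The alternatives with protein_coding transcripts alone and without the j genes were chosen after seeing the data. No paired analysis was possible because there is a single group of 2 libraries and no contrast. With 2 libraries, differences between them have no replicate check.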
